A study of Mus musculus with 52 samples.

Results

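The genes described here encode the subunits of the mitochondrial respiratory chain and ATP synthase. They were chosen by symbol among the protein-coding rows of the count table: the Nduf families A, B, C, S and V, Sdha to Sdhd, all Uqcr genes, Cox4 to Cox8, all Atp5 genes, and the mitochondrially encoded mt-Nd, mt-Co, mt-Atp and mt-Cytb genes. The rule found 97 of the 46071 genes in the table. Of these, 84 are nuclear and 13 lie on the mitochondrial chromosome. By symbol prefix, the nuclear genes were counted as 37 in complex I, 4 in complex II, 8 in complex III, 18 in complex IV and 17 in complex V. Ndufa4 and Ndufa4l2 are thus counted in complex I by their symbol only. Atp5s carries the family symbol but is not a subunit of the enzyme, and it was kept because the rule takes it.

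All mice were C57BL/6J males aged 3 months that carried a catheter in the jugular vein and were awake during a clamp of 3 h, in which blood glucose was held by infused glucose. Control mice received saline (basal in the labels) and the others insulin at 4 or 12 mU/kg/min, taken here as the low and the high infusion. Bulk RNA was profiled in 52 libraries: hypothalamus with 5 basal, 6 low and 5 high, and hippocampus and nucleus accumbens with 6 in each of the 3 groups. The labels do not tie libraries to animals, so a p-value here reflects library-to-library spread, and the number after a group only identifies a library.

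The respiratory chain passes electrons from NADH (complex I) and succinate (complex II) through coenzyme Q, complex III and cytochrome c to oxygen at complex IV, and complex V uses the resulting proton gradient to make ATP. Complexes I, III, IV and V combine subunits made in the cytosol from nuclear genes with a few hydrophobic core subunits made inside the mitochondrion, while complex II is wholly nuclear. Neurons depend heavily on this pathway, and the mitochondrial genes are transcribed as long precursors that are cut into single messages, under separate control from the nuclear genes.

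Libraries held 2453412 to 8279612 counts (median 4654641.5). In 11 libraries the counts leaned to GC-rich transcripts, which means that the Spearman correlation across protein-coding genes, between a library's deviation from its region's mean and transcript GC content, was above 0.4. These were 3 of the 5 hypothalamus basal libraries and none of the 11 hypothalamus insulin libraries, 1, 2 and 1 of the hippocampus basal, low and high libraries, and 1, 1 and 2 of those of nucleus accumbens. Nearest the limit were nucleus accumbens high 2 inside (0.406) and hypothalamus low 1 outside (0.301). Because the lean is not spread evenly over the hypothalamus groups, the main results are given with and without these libraries. Levels are counts per 1000000 (CPM) of a library total that was scaled by TMM normalization factors. Region markers were highest in the labelled region for most libraries. The sum of 5 excitatory neuron markers was 1442 to 3542 CPM in hippocampus and 22.4 to 119 in hypothalamus. That of 6 striatal markers was 618 to 1618 in nucleus accumbens and 32.7 to 220 elsewhere. For 8 hypothalamic peptides it was 49.1 to 1724 in hypothalamus and at most 77.9 elsewhere. The lowest hypothalamus library thus lay within the range of nucleus accumbens. Excitatory markers reached 1045 in some nucleus accumbens libraries. In bulk tissue, fewer cells of a type and less RNA per cell cannot be told apart.

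The mitochondrial genes have near-identical copies in the nuclear genome, and how much sequence a gene shares sets how far its row can be read. For mt-Co3, a core subunit of complex IV, 99.9% of the 50-base stretches also occur in Gm28437, an unprocessed pseudogene on chromosome 1. For mt-Nd2, a core membrane subunit of complex I, only 8.19% occur in another annotated gene. A stretch of 50 bases from each gene is shown beside its copy (GENCODE M21 transcripts, build GRCm38, 5′ to 3′, mt-Co3 at chrM:8707-8756 and mt-Nd2 at chrM:4468-4517, both on the plus strand), with the bases that differ in capitals:
mt-Co3: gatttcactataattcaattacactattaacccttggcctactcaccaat
Gm28437: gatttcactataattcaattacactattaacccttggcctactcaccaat
mt-Nd2: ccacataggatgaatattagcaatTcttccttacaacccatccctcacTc
Gm13339: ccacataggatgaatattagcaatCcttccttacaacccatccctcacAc
A read of 50 bases from the first pair could not be assigned to either gene, whereas the second pair differs at 2 of 50 bases.

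The counts followed this property only in part. Over all libraries mt-Co3 held 4496 counts and its copy Gm28437 4647, mt-Co2 (the subunit of complex IV that takes electrons from cytochrome c) held 7526 and its copy Gm28661 8874, and mt-Atp6 (the proton channel subunit of complex V) held 4135 and its copy Gm10925 3995. These 3 genes share 99.5% to 100% of their 50-base stretches. By contrast mt-Co1, the catalytic subunit of complex IV, which shares 51.1%, held 1332869 counts, and mt-Nd1, which shares 0%, held 1001218. The gene mt-Nd3 shares 98.0% with Gm28438 and still held 99647 counts, against 506 in the copy. Rows for mt-Co2, mt-Co3, mt-Atp6 and mt-Nd4l (98.8% shared, 278 counts) share nearly all their stretches and hold few counts. They are therefore called uncertain as measures of these genes. The row of mt-Nd3 was left out of that group for its higher count only, although it shares almost as much. Whether sharing lowers the counts was not tested. A further pair of rows holds almost nothing: mt-Atp8, of which 21.1% overlaps mt-Atp6, with 115 counts, and Uqcrc1, a core subunit of complex III, with 3. Uqcrc1 shares 0% of its 50-base stretches and overlaps no other annotated gene. Among the nuclear genes, 40 of 84 share no 50-base stretch with another gene and none shares 50% or more.

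**Figure D1:**
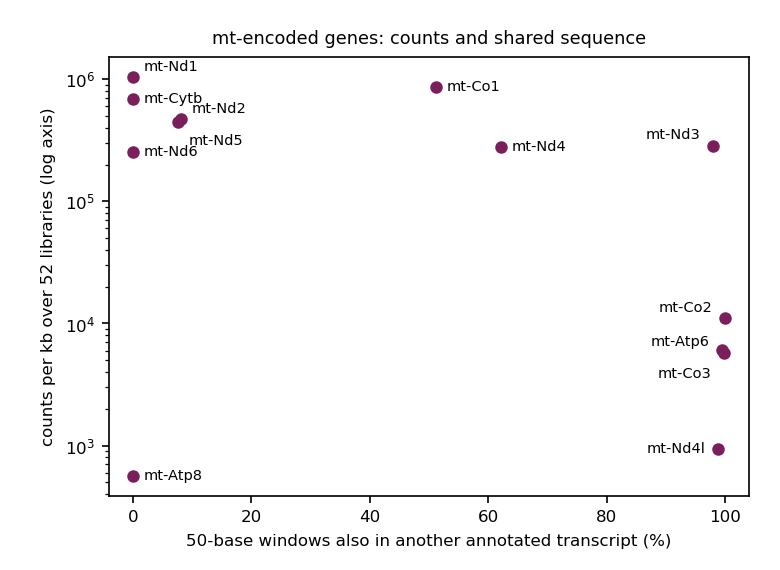
Counts per kilobase summed over 52 libraries (log axis) for each mitochondrially encoded gene against the percentage of its 50-base stretches that also occur in another annotated gene. The genes with 99.5% or more shared lie far below mt-Co1 (51.1%), mt-Nd1 (0%) and mt-Nd3 (98.0%), and mt-Atp8 is low with 0% shared.

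Per kilobase of merged exons, the 8 highest of the 97 genes were mitochondrial in each of the 3 regions. Levels are given as CPM per kilobase, mean ± SD over 16 libraries in hypothalamus, 18 in hippocampus and 18 in nucleus accumbens. Highest in every region was mt-Nd1, a core membrane subunit of complex I, at 3738 ± 714 in hypothalamus, 4097 ± 768 in hippocampus and 4747 ± 1035 in nucleus accumbens. Next came mt-Co1 at 3135 ± 550, 3421 ± 957 and 3654 ± 693 in the same order, within 1 SD of mt-Nd1 in hypothalamus and hippocampus. Below it was mt-Cytb, the only mitochondrially encoded subunit of complex III, at 2430 ± 400, 2595 ± 604 and 3166 ± 592. The other 5 were mt-Nd2, mt-Nd5, mt-Nd3, mt-Nd4 and mt-Nd6, all complex I subunits, between 913 ± 253 (mt-Nd6 in hippocampus) and 2056 ± 534 (mt-Nd2 in nucleus accumbens).

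The nuclear genes began lower. Complex V supplied Atp5b, the catalytic beta subunit (202 ± 45.4, 234 ± 60.8 and 217 ± 27.7 CPM per kilobase in hypothalamus, hippocampus and nucleus accumbens), and Atp5a1, its alpha partner (176 ± 37.8, 185 ± 49.5 and 176 ± 29.9). Complex IV supplied Cox6a1 (173 ± 84.9, 263 ± 66.1 and 221 ± 43.3) and Cox4i1 (101 ± 56.3, 118 ± 65.0 and 116 ± 25.3), both structural subunits. The succinate-binding flavoprotein Sdha was the leading complex II gene (133 ± 14.1, 112 ± 12.3 and 120 ± 15.7), well above its iron-sulphur partner Sdhb (40.8 ± 17.9, 39.0 ± 11.5 and 42.2 ± 6.89). The complex III iron-sulphur protein Uqcrfs1 lay at 49.1 ± 9.78, 55.2 ± 13.9 and 53.7 ± 7.83. Of the core subunits of complex I, Ndufv1, which binds NADH, lay at 34.5 ± 17.5, 37.6 ± 14.5 and 33.7 ± 7.55, and Ndufs1, an iron-sulphur subunit, at 18.5 ± 2.28, 19.4 ± 1.86 and 19.6 ± 1.68. The level per kilobase depends on the annotated exons: those of Ndufs1 merge to 8086 bases, against 2661 in its longest transcript. In hypothalamus and hippocampus the spread relative to the mean was widest for Cox4i1 among these genes and narrowest for Ndufs1 and Sdha.

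Subunits with tissue-restricted copies were represented by the general form in all 3 regions. Cox6a1 was accompanied by Cox6a2, the heart and muscle form, at only 2.62 ± 1.59 CPM per kilobase in hypothalamus, 3.41 ± 1.36 in hippocampus and 4.01 ± 1.37 in nucleus accumbens. Cox4i2, the lung and hypoxia-linked form, lay at 1.32 ± 0.535, 1.11 ± 0.710 and 1.65 ± 0.876 far below Cox4i1. Cox7a1, the muscle form, lay at 1.22 ± 1.08, 1.43 ± 1.09 and 1.16 ± 0.734, below Cox7a2 (35.9 ± 11.8, 40.1 ± 15.7 and 38.9 ± 7.63) and the supercomplex factor Cox7a2l (97.1 ± 26.2, 107 ± 43.1 and 106 ± 47.9). Ndufa4l2, a hypoxia-linked relative of Ndufa4, lay at 0.719 ± 0.427, 0.731 ± 0.575 and 0.468 ± 0.361, against 103 ± 42.4, 127 ± 38.2 and 124 ± 29.6 for Ndufa4. The testis-linked Cox6b2 lay at most at 0.567 ± 0.426, against 122 ± 97.6 for Cox6b1 in the same region, and Cox8b had a median of 0 CPM in all 9 groups. Summed CPM of 5 skeletal muscle markers stayed between 8.55 and 54.6 in all libraries. Ndufa4l2, Uqcrc1, Cox4i2, Cox6b2, Cox7a1, Cox7b2, Cox8b, Cox8c and mt-Atp8 were too low to test with all libraries, and mt-Nd4l was then tested only where the 3 regions were fitted together. Without a filter on low counts, Cox8b was called lower in nucleus accumbens than in hippocampus.

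Summed over the 84 nuclear genes, the level differed up to 2.54-fold between libraries, and summed over the 13 mitochondrial genes up to 2.22-fold. In hypothalamus the nuclear sum of the 5 basal libraries was 6604, 8561, 5288, 5456 and 13420 CPM. The low group ran from 5342 to 7747 (median 6416) and the high libraries held 5941, 6275, 6026, 6007 and 6959. Basal 5 was the highest of all 52 libraries, and the basal group spanned both insulin groups. In hippocampus the medians were 6560 (5678 to 9118) in basal, 6925 (5751 to 9674) in low and 6715 (5459 to 10032) in high libraries. In nucleus accumbens they were 6818 (5733 to 6960), 6646 (6375 to 7303) and 7213 (6721 to 8667). All groups of a region overlapped in this sum.

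**Figure D2:**
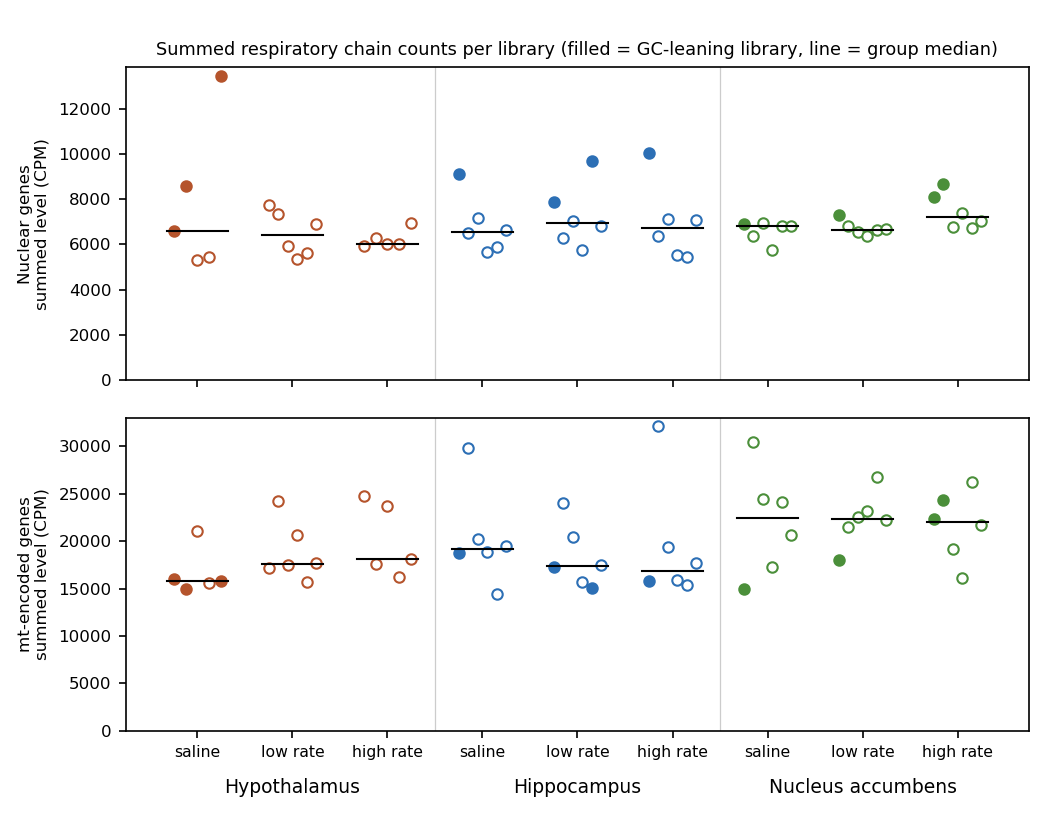
Summed CPM of the 84 nuclear and of the 13 mitochondrially encoded genes in each of 52 libraries, by region and infusion. Points are libraries, bars are group medians and filled points are the 11 libraries leaning to GC-rich transcripts. Hypothalamus basal 5 is the highest nuclear value (13420 CPM), and the highest nuclear values in each region are leaning libraries.

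The nuclear and mitochondrial sums went opposite ways in the leaning libraries. The nuclear sum lay between 6604 and 13420 CPM (median 8561) in the 11 leaning libraries and between 5288 and 7747 (median 6536) in the 41 others. The mitochondrial sum lay between 14930 and 24350 (median 16048) in the leaning libraries and between 14446 and 32130 (median 20184) in the others. The mitochondrial to nuclear ratio was 1.18 to 2.81 (median 2.17) with the lean and 2.18 to 5.04 (median 3.01) without it. The nuclear transcripts have a median GC content of 50.2% and a median length of 988.5 bases, and the mitochondrial ones 37.1% and 784 bases, while the 13627 nuclear protein-coding genes tested have 49.8% and 3550 bases. The lean was computed over all protein-coding genes, these included, and its part in the levels was not tested apart from the fits below.

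Another property of the libraries also moved with the mitochondrial genes. Titles carry a tag number, and libraries with neighbouring numbers were taken as one run, of which there are 8. The labels do not say what the tag stands for. The 8 libraries of the run numbered 3, from all 3 regions, had mitochondrial sums from 21501 to 32130 CPM, and the 3 of the run numbered 7, all nucleus accumbens, from 24144 to 26804. The 6 libraries of the run numbered 6, from hypothalamus and hippocampus, lay between 14446 and 16176, without overlap with either. Runs held basal, low and high libraries side by side in hippocampus and nucleus accumbens. In hypothalamus the runs numbered 3 and 4 held no basal library, the run numbered 1 no high library, and the run numbered 2 only 1 basal library. Infusion and run are therefore partly confounded in hypothalamus. The GC lean also differed by run. Its median was 0.566 in the 8 libraries of the run numbered 1 and -0.593 in the 8 of the run numbered 3. The only library of the run numbered 2 had 0.710. Leaving out the leaning libraries thus also removes most of the run numbered 1, and lean and run cannot be fully told apart. The part of the run in the levels was not tested apart from fits with the run, or the tag range (a wider grouping of the numbers), as a term.

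**Figure D3:**
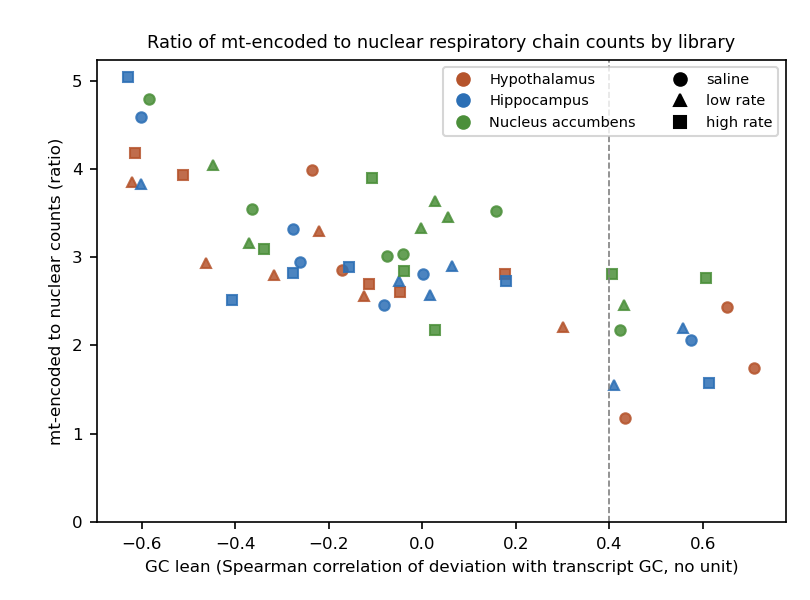
Ratio of summed mitochondrial to summed nuclear CPM in each of 52 libraries against the library's GC lean (Spearman correlation across protein-coding genes), coloured by region, with the limit of 0.4 as a line. Libraries right of the limit have ratios of 1.18 to 2.81, and those left of it 2.18 to 5.04.

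For the low insulin infusion in hypothalamus, none of the 87 genes tested passed the threshold (edgeR quasi-likelihood test, adjusted p under 0.05), against 5.38% of all 14139 genes tested (3.59% higher and 1.78% lower). The nuclear genes lay mostly below basal: 66 of 76 had a negative log2 difference, with a median of -0.34 where the median of all genes was -0.02. The mitochondrial genes lay the other way, with 8 of 11 above basal and a median of 0.16. An unadjusted p under 0.05 was found for 10 nuclear genes and no mitochondrial one, and for 4221 of all 14139 genes tested. DESeq2 called 1 gene, Ndufa11 (12.0% of all genes), and limma-voom none. With edgeR, leaving out basal 4, 1 of the 2 basal libraries without the lean, gave 7 calls, leaving out basal 3, the other, gave 6, and leaving out low 1 gave 1, all of them lower in the low group. In these fits 22.1%, 18.0% and 14.4% of all genes were called.

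The negative differences ran through all 5 complexes. In complex I 33 of 36 nuclear genes tested lay below basal (median log2 difference -0.47), in complex II 4 of 4 (-0.26), in complex III 6 of 7 (-0.30), in complex IV 10 of 12 (-0.26) and in complex V 13 of 17 (-0.26). Ndufa11, an accessory subunit of the membrane arm of complex I, had the smallest p. Its levels were 13.9, 22.3, 7.38, 7.46 and 33.6 CPM in the basal libraries, 3.11 to 12.1 (median 7.28) in the low group, and 8.55, 12.0, 7.07, 4.39 and 7.43 in the high group. Basal 1, 2 and 5, the 3 leaning libraries, lay above every insulin library, and basal 3 and 4 lay within their range. The log2 difference for low was -1.18 (SE 0.39, adjusted p = 0.0710, edgeR).

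Ndufa13, another accessory complex I subunit, of which 30.0% overlaps Tssk6 on the other strand, gave 62.5, 119, 50.0, 70.7 and 217 CPM in basal and 58.1 to 72.8 (median 62.5) in low libraries. Only basal 2 and 5 stood above the low group, and the log2 difference was -0.69 (SE 0.27, adjusted p = 0.111, edgeR). Atp5g2, one of the genes for the rotating c ring of complex V, gave 17.6, 21.7, 11.3, 11.0 and 27.5 CPM in basal and 10.8 to 14.2 (median 12.4) in low libraries. Again basal 1, 2 and 5 stood above and basal 3 and 4 within, with a log2 difference of -0.50 (SE 0.20, adjusted p = 0.112, edgeR). The catalytic Atp5b gave 921, 1147, 680, 697 and 1367 CPM in basal and 665 to 973 (median 797) in low libraries, with basal 2 and 5 above the low group and the others within it.

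The high infusion, compared with the same basal libraries, also gave no call among the 87 genes (0.184% of all genes were called, 0.177% higher and 0.00707% lower). Of the 76 nuclear genes 70 lay below basal, with a median log2 difference of -0.44, and 8 of 11 mitochondrial genes lay above it, with a median of 0.27. An unadjusted p under 0.05 was found for 12 of these genes and for 3406 of all 14139 genes tested. Neither DESeq2 nor limma-voom called a respiratory chain gene. Leaving out basal 4 gave 4 calls and leaving out basal 3 gave 1, all lower, where 13.0% and 4.29% of all genes were called. Ndufs7, a core iron-sulphur subunit next to the quinone site of complex I, had the smallest p: 63.8, 100, 22.9, 19.6 and 106 CPM in basal and 22.3, 35.3, 22.3, 24.4 and 28.0 in high libraries (log2 difference -1.24, SE 0.44, adjusted p = 0.144, edgeR). Atp5d, the delta subunit of the ATP synthase stalk, gave 74.7, 116, 26.8, 27.1 and 156 CPM in basal and 31.9, 40.6, 29.1, 32.1 and 46.1 in high libraries (-1.16, SE 0.42, adjusted p = 0.148, edgeR). For both genes the leaning basal libraries lay above every high library and the other 2 basal libraries near or below the lowest high library. The next gene was Ndufa11 (-1.12, SE 0.41, adjusted p = 0.148, edgeR).

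Without the leaning libraries the direction of the nuclear genes turned. With 2 basal libraries left, 71 of 76 nuclear genes lay above basal at the low infusion (median log2 difference 0.40) and 67 of 76 at the high infusion (0.33), with none called. The mitochondrial medians kept their sign, at 0.17 for low and 0.21 for high. With the tag range as a term in the fit of all libraries they were 0.04 and 0.07, and the nuclear medians -0.37 and -0.47. With the lean as a covariate in the fit of all libraries, the nuclear medians were 0.03 (45 of 76 above) and 0.00 (38 of 76 above). Leaving out basal 5 alone gave -0.02 and -0.04. Ndufa11 moved from -1.18 to 0.03 without the leaning libraries, Ndufs7 (high) from -1.24 to 0.31 and Atp5d (high) from -1.16 to 0.43. Across the 76 nuclear genes, the log2 difference at the low infusion had a Spearman correlation of -0.48 with transcript GC content with all libraries and 0.15 without the leaning ones. With transcript length the values were 0.26 and -0.41. These are given as a description since the genes share the same libraries.

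Cell type markers also differed between these groups. Summed CPM of 6 astrocyte markers was 1992 to 3227 in basal, 2690 to 3776 in low and 3036 to 3568 in high hypothalamus libraries, and that of 6 neuronal markers 3815 to 4952, 4754 to 5956 and 4588 to 6100. The 8 hypothalamic peptides summed to 876 to 1724 in basal, 49.1 to 1315 in low and 174 to 1047 in high libraries, with no marker at 0 in a whole group. At least 1 of Hcrt, Pmch, Avp, Oxt and Pomc lay under 1 CPM in 5 of the 11 insulin libraries (low 1, 2 and 6, high 3 and 5) and in 0 of the 5 basal ones. Without these 5 libraries none of the respiratory chain genes was called. The nuclear medians were then -0.70 for low (67 of 75 below basal), -0.48 for high and 0.19 between high and low, and the mitochondrial ones -0.04, 0.16 and 0.14. The sign thus turned for the mitochondrial genes at the low infusion and for the nuclear genes between high and low. The part of the other markers in the differences of the respiratory chain genes was not tested.

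**Figure D4:**
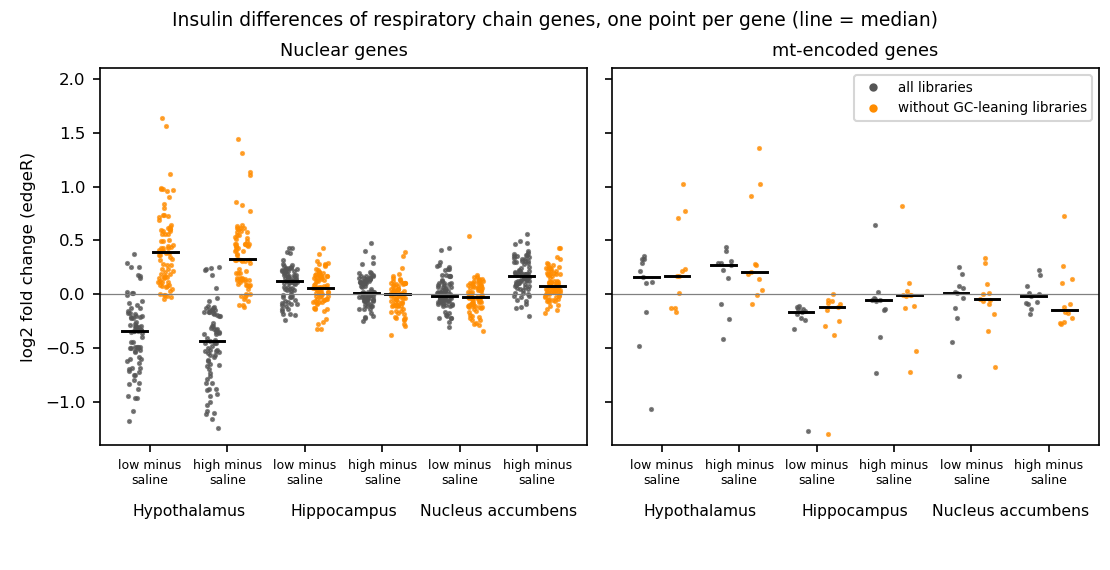
Log2 difference between insulin and basal for each tested gene, by region, infusion and genome, with all libraries and without the 11 leaning ones; each point is a gene and the bar is the median. In hypothalamus the nuclear medians are -0.34 (low) and -0.44 (high) with all libraries and 0.40 and 0.33 without the leaning ones, and no gene passed the threshold.

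Between the high and low infusions in hypothalamus none of the 87 genes was called (0% of all genes), none had an unadjusted p under 0.05, and DESeq2 and limma-voom called none. The nuclear median was -0.07 and the mitochondrial median 0.07. Leaving out the leaning libraries gave the same values, but it removed only basal libraries, which are not part of this contrast. The genes with the smallest p were Atp5g1, another c ring gene (log2 difference -0.20, SE 0.16), Cox7c of complex IV (-0.25, SE 0.22) and Ndufb8 of complex I (-0.51, SE 0.47). Ndufb8 rested on 1 library, low 1, with 248 CPM where the other low libraries held 47.7 to 114 and the high ones 61.4 to 78.3.

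In hippocampus no gene was called at either infusion or between them (0% of all 13515 genes in each of the 3 contrasts), by edgeR, DESeq2 or limma-voom. At the low infusion 55 of 76 nuclear genes lay above basal (median log2 difference 0.12) and all 11 mitochondrial genes below it (median -0.17), with none at an unadjusted p under 0.05. Ndufb9, an accessory complex I subunit, gave 32.1 to 64.7 CPM (median 45.3) in basal and 44.7 to 123 (median 51.6) in low libraries (0.43, SE 0.24, adjusted p = 0.890, edgeR). Its highest value came from low 5, a leaning library, and the groups overlapped. Uqcr10, a small subunit of complex III, gave 18.0 to 39.1 CPM (median 22.1) in basal and 21.9 to 48.4 (median 32.5) in low libraries (0.43, SE 0.25), and mt-Atp6, one of the uncertain rows, had a log2 difference of -1.28 (SE 0.86).

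At the high infusion the hippocampal medians were near 0, at 0.01 for the nuclear and -0.06 for the mitochondrial genes, and none had an unadjusted p under 0.05. The smallest p belonged to mt-Co2 (-0.73, SE 0.46), Atp5mpl, a small complex V subunit (-0.22, SE 0.17), and Cox6b1 (0.47, SE 0.49). Cox6b1 ran from 27.4 to 136 CPM in basal and from 21.2 to 220 in high libraries, so its groups overlapped widely. Between high and low, mt-Atp6 had an unadjusted p of 0.0374 (log2 difference 1.92, SE 0.86, edgeR). It was alone among the respiratory chain genes with an unadjusted p under 0.05, which 384 of all 13515 genes had. High 5 held 198 CPM and the 5 other high libraries 3.79 to 8.42, and without high 5 the difference was -0.60. Cox5a (-0.26, SE 0.16) and Ndufa5 (-0.25, SE 0.18) followed. Without the leaning libraries the nuclear medians were 0.06 for low and -0.00 for high, and the mitochondrial ones -0.12 (10 of 11 below) and -0.01.

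Oligodendrocyte markers differed between these hippocampal groups. The sum of 6 of them was 2769 to 5107 CPM in basal, 5877 to 18296 in low and 5457 to 7620 in high libraries, so that basal did not overlap the insulin groups. The sum of 6 choroid plexus markers ran from 66.2 to 1444 CPM in basal, 91.4 to 6290 in low and 61.2 to 2848 in high libraries. None of the markers was called, and their part in the differences above was not tested.

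In nucleus accumbens there was likewise no call in the 3 contrasts (0% of all 13769 genes), by edgeR, DESeq2 or limma-voom. At the low infusion the nuclear median was -0.01 and the mitochondrial median 0.01, with no gene at an unadjusted p under 0.05. Cox7a2l (0.43, SE 0.31), mt-Co2 (-0.76, SE 0.56) and Cox8a (-0.26, SE 0.20) had the smallest p. At the high infusion 67 of 76 nuclear genes lay above basal, with a median of 0.16, while the mitochondrial median was -0.02. Of the nuclear genes, 8 had an unadjusted p under 0.05, as did 326 of all 13769 genes tested. Uqcr11, a small subunit of complex III, gave 32.2 to 52.3 CPM (median 43.2) in basal, 31.1 to 63.2 (median 40.8) in low and 45.0 to 76.8 (median 59.3) in high libraries. The groups overlapped, the log2 difference between high and basal was 0.47 (SE 0.16), and the unadjusted p of 0.00781 became 1.00 after adjustment over all genes (edgeR).

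Uqcrh, the hinge protein of complex III (0.29, SE 0.12), and Ndufb11, an accessory complex I subunit (0.31, SE 0.13), came next in nucleus accumbens at the high infusion. Between high and low, 67 of 76 nuclear genes lay above 0 (median 0.16). An unadjusted p under 0.05 was found for 4 of them and for 292 of all 13769 genes tested. The nuclear genes were led by Uqcr11 (0.46, SE 0.16), Atp5j2, a membrane subunit of complex V (0.39, SE 0.16), and the NADH-binding Ndufv1 (0.36, SE 0.15). These contrasts share their libraries, so the values stand side by side and do not support each other. High 1 and high 2, the 2 leaning libraries of the group, held the 2 highest levels of Atp5j2 (57.4 and 82.7 CPM) and of Ndufv1 (127 and 124 CPM). Without the leaning libraries the nuclear medians were 0.07 (58 of 76 above) for high against basal and 0.09 (56 of 76 above) for high against low, and the mitochondrial ones -0.15 (8 of 12 below) and -0.10 (9 of 12 below). At the low infusion they were -0.02 for the nuclear and -0.05 for the mitochondrial genes.

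Whether an insulin difference itself differed between regions was tested with 6 interaction contrasts over all 52 libraries. No gene of the set was called, and 0% of all 14985 genes were, by edgeR. Leaving out hypothalamus basal 4 or hippocampus basal 1 gave 1 call, where 3.77% and 1.98% of all genes were called in the contrast of hypothalamus with hippocampus at the low infusion. Of the 88 respiratory chain genes tested, an unadjusted p under 0.05 was found for 18 in that contrast and 14 at the high infusion, for 7 and 26 in nucleus accumbens with hypothalamus, and for 0 and 0 in nucleus accumbens with hippocampus. Over all genes the numbers were 3634 and 1423, 2107 and 2821, and 790 and 357. Without the leaning libraries the numbers among the respiratory chain genes were 0 and 4, 8 and 2, and 1 and 0. The direction also turned: for hypothalamus with hippocampus at the low infusion 67 of 76 nuclear genes lay below 0 with all libraries and 69 of 76 above 0 without the leaning ones. The lowest adjusted p among them was 0.115. DESeq2 and limma-voom were not run on these contrasts.

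Differences between regions were few in this set. Between hypothalamus and hippocampus 8 of 88 genes tested were called (edgeR, all 52 libraries, averaged over infusions), where 59.4% of all 14985 genes were (29.8% higher and 29.6% lower in hypothalamus). Between nucleus accumbens and hippocampus 5 were called, 2 higher and 3 lower in nucleus accumbens, where 48% of all genes were (23.8% higher and 24.2% lower). Between nucleus accumbens and hypothalamus 8 were called, 6 higher and 2 lower in nucleus accumbens, where 41.9% of all genes were (19.9% higher and 22% lower). The called genes came from all 5 complexes. The mitochondrial genes lay highest in nucleus accumbens: 12 of 12 lay above hypothalamus (median log2 difference 0.32) and 11 of 12 above hippocampus (0.21). The nuclear medians were 0.03 and -0.02. The 12 include the uncertain rows mt-Co2, mt-Co3, mt-Atp6 and mt-Nd4l. The run numbered 7, with high mitochondrial sums, held only nucleus accumbens, and the run numbered 6, with low sums, did not hold it. Region fits did not have the run as a term, so its part was not tested. With the saline libraries only, no mitochondrial gene was called for either pair.

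Of the 8 genes called between hypothalamus and hippocampus, 4 were lower in hypothalamus. Cox8a, a small subunit of complex IV, gave 22.4 to 81.9 CPM (median 38.5) in hypothalamus, 29.4 to 174 (median 59.0) in hippocampus and 26.7 to 71.8 (median 49.2) in nucleus accumbens. Its ranges overlapped, and it fell by 0.82 on the log2 scale in hypothalamus (SE 0.20, adjusted p = 0.000433, edgeR) and by 0.57 in nucleus accumbens (adjusted p = 0.0121, edgeR), both against hippocampus. Cox6a1, also of complex IV, gave 71.4 to 308 CPM (median 102), 111 to 267 (median 193) and 80.9 to 214 (median 149) in the same order. It was lower in hypothalamus than in hippocampus by a log2 difference of -0.62 (SE 0.15, adjusted p = 0.000345, edgeR) and higher in nucleus accumbens than in hypothalamus (0.36, adjusted p = 0.0464, edgeR). The single highest Cox6a1 value in hypothalamus was 308 CPM, above every library of the other regions.

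Ndufs3, a core complex I subunit, had a log2 difference of -0.19 between hypothalamus and hippocampus (adjusted p = 0.0245, edgeR). The last of these was mt-Atp6 (-1.46, SE 0.41, adjusted p = 0.00171, edgeR), one of the uncertain rows. It rested on hippocampus high 5, without which the difference was -0.63 with an adjusted p of 0.0583 (edgeR).

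The other 4 were higher in hypothalamus. Ndufb5, an accessory complex I subunit, gave 93.0 to 235 CPM (median 114) in hypothalamus, 61.0 to 143 (median 89.3) in hippocampus and 79.1 to 147 (median 107) in nucleus accumbens. It was higher in hypothalamus than in hippocampus (0.48, SE 0.11, adjusted p = 0.000109, edgeR) and lower in nucleus accumbens than in hypothalamus (-0.28, adjusted p = 0.0292, edgeR). Sdha gave 456 to 685 CPM (median 548), 392 to 614 (median 463) and 388 to 635 (median 502) in the same order (0.24, SE 0.06, adjusted p = 0.000804, edgeR). Ndufv2, an iron-sulphur partner of Ndufv1, was higher in hypothalamus (0.31, adjusted p = 0.00324, edgeR) and in nucleus accumbens (0.24, adjusted p = 0.0227, edgeR), both against hippocampus. Cox5a, a nuclear subunit of complex IV, was higher in hypothalamus (0.33, adjusted p = 0.00863, edgeR).

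In nucleus accumbens, mt-Cytb gave 2468 to 5226 CPM (median 3633), against 1952 to 4351 (median 2917) in hippocampus and 2003 to 3718 (median 2817) in hypothalamus. It was higher in nucleus accumbens than in both (0.29, adjusted p = 0.0129, and 0.38, adjusted p = 0.00185, edgeR), with ranges that overlapped. The gene mt-Nd1 was higher in nucleus accumbens than in hypothalamus (0.35, SE 0.10, adjusted p = 0.00424, edgeR), at 2345 to 6341 CPM (median 4501) against 2694 to 4630 (median 3542). The uncertain rows mt-Co3 (1.16, adjusted p = 0.0110, edgeR) and mt-Nd4l (1.34, adjusted p = 0.0102, edgeR), and the low-level Cox6a2 (0.60, adjusted p = 0.0269, edgeR) were also higher there than in hypothalamus. Ndufa12, an accessory complex I subunit, was lower (-0.37, adjusted p = 0.0167, edgeR). Against hippocampus, Atp5g1 (-0.25, adjusted p = 0.0190, edgeR) and Ndufa10 of complex I (-0.24, adjusted p = 0.0486, edgeR) were lower. Leaving out 1 of the 52 libraries in turn, Ndufa10 kept its call in 18 of the 52 fits, Cox6a1 (nucleus accumbens against hypothalamus) in 32 and Ndufb5 (the same pair) in 45, and each of the other calls in at least 50.

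More genes were called without the leaning libraries. Between hypothalamus and hippocampus 19 were (15 of them lower in hypothalamus), and these included all 8 named above. Leaving out hypothalamus basal 5 alone also gave 19 (59.5% of all genes). Between nucleus accumbens and hypothalamus 23 were called, 22 of them higher in nucleus accumbens, and 6 of the 8 were among them. Between nucleus accumbens and hippocampus 9 were called, 8 of them higher in nucleus accumbens, with 3 of the 5 among them, and leaving out hippocampus high 2 alone gave 8 (48.4% of all genes). The shares of all genes called without the leaning libraries were 58.1%, 39.9% and 48.1% in the same order. The calls lost were Cox8a (-0.30, adjusted p = 0.123, edgeR) and Atp5g1 (-0.13, adjusted p = 0.156, edgeR) against hippocampus, and Ndufa12 (-0.18, adjusted p = 0.114, edgeR) and Ndufb5 (-0.18, adjusted p = 0.0753, edgeR) against hypothalamus. With the lean as a covariate the counts were 15, 10 and 11, in the order hypothalamus with hippocampus, nucleus accumbens with hippocampus and nucleus accumbens with hypothalamus, and every gene named above as called was among them, where 65.1%, 55.5% and 50.4% of all genes were called. Without mitochondrial rows in the library size, where the mitochondrial genes were not tested, the counts were 7, 3 and 4, where 59.6%, 47.9% and 41.8% of all genes were called. With the saline libraries only, 5 or 6 a region, they were 8, 0 and 2, and 4 of the 8 called between hypothalamus and hippocampus were the same genes. The shares of all genes were then 44.1%, 27.9% and 29.0%.

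**Figure D5:**
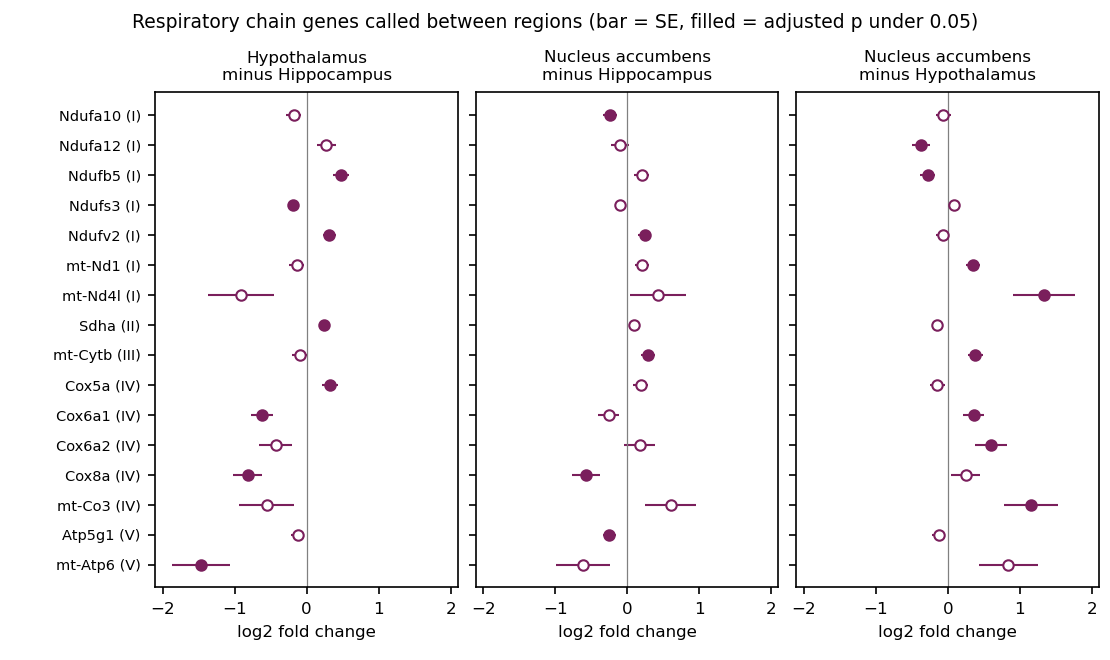
Log2 difference between regions over all 52 libraries for the 16 genes called in at least 1 pair, 1 panel per pair, with the complex in brackets. Bars are standard errors and filled points have an adjusted p under 0.05. The uncertain rows mt-Atp6 (-1.46), mt-Co3 (1.16) and mt-Nd4l (1.34) have the longest bars, while Sdha (0.24) and Ndufs3 (-0.19) have short ones.

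The promoters of the nuclear genes were searched for a pair of motifs. Sequences from 250 bases before to 50 after the start were taken from RefSeq (GRCm38.p6) and matched 66 of 84 nuclear genes. The binding motif of NRF1, a factor known to act on respiratory chain genes, was searched as GCGC, then any base, then TGCGC, and on the other strand as GCGCA, then any base, then GCGC. It occurred in 17 of 66 promoters (25.8%) and in 1402 of all 27025 (5.19%), counting a gene where any of its listed starts had it. In the window nearest the annotated start, 16 of the 66 held it. The motif of ETS factors, searched as CCGGAAGT and ACTTCCGG, occurred in 5 of 66 (7.58%) and in 1164 of all promoters (4.31%). The 66 promoters had a median GC content of 57%, against 52.7% for all, and the part of GC content in the motif counts was not tested. The 150 bases before the start are shown for 4 genes that differed between regions, with NRF1 motifs in capitals, 5′ to 3′ along the gene (Cox8a chr19:7217617-7217766, minus strand; Cox6a1 chr5:115348959-115349108, minus; Ndufb5 chr3:32736913-32737062, plus; Sdha chr13:74350241-74350390, minus):
Cox8a: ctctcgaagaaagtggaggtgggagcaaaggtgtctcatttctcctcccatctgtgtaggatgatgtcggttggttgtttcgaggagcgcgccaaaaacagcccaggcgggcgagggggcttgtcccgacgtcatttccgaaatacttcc
Cox6a1: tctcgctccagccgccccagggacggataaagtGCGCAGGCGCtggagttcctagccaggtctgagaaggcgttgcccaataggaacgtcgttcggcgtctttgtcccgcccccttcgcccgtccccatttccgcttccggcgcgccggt
Ndufb5: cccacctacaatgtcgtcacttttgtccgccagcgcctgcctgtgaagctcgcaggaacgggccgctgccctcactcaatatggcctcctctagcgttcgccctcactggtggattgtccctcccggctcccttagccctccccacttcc
Sdha: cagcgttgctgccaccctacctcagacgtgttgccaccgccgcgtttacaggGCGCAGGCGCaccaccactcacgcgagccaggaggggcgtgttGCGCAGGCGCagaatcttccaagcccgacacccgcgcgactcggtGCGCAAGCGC
Sdha holds 3 NRF1 matches and Cox6a1 1, and no whole ETS match lies in these stretches. Cox8a is among the 5 genes with an ETS match, which is not wholly within the stretch shown. These 4 genes do not fall into one direction by the NRF1 match: Sdha was higher and Cox6a1 lower in hypothalamus than in hippocampus. A match describes the letters only.

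Genes around the respiratory chain were read from 7 lists. In hypothalamus at the low infusion, 2 of 15 regulators of mitochondrial gene expression rose and none fell (edgeR). Ppargc1a, a coactivator known for driving mitochondrial biogenesis, gave 48.4, 42.9, 70.4, 99.0 and 64.0 CPM in basal and 86.5 to 129 (median 96.7) in low libraries (0.67, SE 0.18, adjusted p = 0.0403, edgeR). Gabpb2, a subunit of an ETS factor known as NRF2, gave 32.5, 30.4, 35.3, 29.8 and 22.3 CPM in basal and 32.4 to 48.0 (median 44.4) in low libraries (0.53, adjusted p = 0.0295, edgeR). Basal 4 for Ppargc1a and basal 1 and 3 for Gabpb2 overlapped the low group.

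Of 17 electron carriers and partners, Ucp2, an inner membrane carrier, fell: 149, 153, 120, 113 and 156 CPM in basal and 79.3 to 96.1 (median 88.0) in low libraries, without overlap (-0.63, adjusted p = 0.0142, edgeR). Of 13 coenzyme Q synthesis genes, Coq8b fell (-0.81, adjusted p = 0.0359, edgeR), and of 74 cytosolic ribosomal protein genes, Rps3 (-0.90, adjusted p = 0.0455, edgeR). None of 21 genes for expression and upkeep of the mitochondrial genome, 44 assembly factors or 75 mitochondrial ribosomal proteins was called in this contrast. Of all genes, 3.59% were called higher and 1.78% lower here, and 1 of 74 is near that share. The mitochondrial ribosomal proteins had a median log2 difference of -0.36. Without the leaning libraries none of the 5 genes passed the threshold: the log2 differences were 0.29 for Ppargc1a, 0.40 for Gabpb2, -0.38 for Ucp2, -0.30 for Coq8b and 0.03 for Rps3, with adjusted p from 0.811 to 0.985 (edgeR). With the lean as a covariate they were 0.43, 0.40, -0.51, -0.41 and -0.42, and none passed (adjusted p from 0.188 to 0.616, edgeR).

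Calls between regions in these lists are to be read against the shares of all genes given above (59.4%, 48% and 41.9%). Of the 21 genes for the mitochondrial genome, 9 were higher and 3 lower in hypothalamus than in hippocampus, 6 higher and 1 lower in nucleus accumbens than in hippocampus, and 4 higher and 1 lower in nucleus accumbens than in hypothalamus. Polg, the polymerase that copies mitochondrial DNA, was lower in hypothalamus than in hippocampus (-0.56, SE 0.06) and higher in nucleus accumbens than in hypothalamus (0.32, SE 0.06). Esrrg, an orphan receptor known to act on oxidative genes, was higher in hypothalamus (0.83, SE 0.15) and in nucleus accumbens (0.97, SE 0.14) than in hippocampus. Of 44 assembly factors, 11 were higher and 11 lower in hypothalamus than in hippocampus, among them Ttc19 of complex III (-0.60, SE 0.06), Cox15 of heme synthesis (-0.43, SE 0.06) and Ndufaf6 of complex I (0.62, SE 0.10). Gpd2, which feeds electrons from glycerol phosphate into coenzyme Q, was lower than in hippocampus in both hypothalamus (-0.94, SE 0.08) and nucleus accumbens (-1.09, SE 0.08). Coq8a, a kinase-like factor of coenzyme Q synthesis, was lower in the same way (-1.15, SE 0.12, and -0.77, SE 0.11). The rule named 62 entries between regions, where a gene counts once for each pair it was named in. Of these, 61 kept their call without the leaning libraries and none changed sign. The entries were picked for the smallest p in mostly the same libraries, so this does not speak for the lists as a whole.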

How the data were processed

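RNA from 3 brain regions was profiled in 52 stranded libraries, per the labels' protocols. The values are raw counts of reads per Ensembl gene that the authors deposited as 1 table, without normalization. STAR, featureCounts and build GRCm38.p4 are named per the submitters' processing notes, but neither versions and options nor the use of strand or the annotation release. Counting can drop or divide reads that fit near-identical genes, and genes overlapping on opposite strands cannot be told apart if strand was not used. Names came from GENCODE M21, which matched 45229 of 46071 rows, and the 842 others held 0.0844% of counts. Intervals and tests cover the spread between libraries. No molecular identifiers are stated.

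CPM was computed on library totals over the genes kept by filterByExpr, scaled by TMM factors from all 52 libraries together. From it came CPM per kilobase of a gene's merged exons. Tests were edgeR 4.0.16 quasi-likelihood tests (robust, TMM, filterByExpr, R 4.3.3). Adjustment was by Benjamini-Hochberg over all genes tested, with a threshold of 0.05. Each region was fitted alone for the infusions, and all 52 libraries, as 9 group means, for regions and interactions. The low and high comparisons share the basal libraries. GC lean was the Spearman correlation across protein-coding genes between log CPM deviation (prior count 2) and transcript GC, with a limit of 0.4. Alternatives used DESeq2 1.42.0, limma 3.58.1 (voom), other size factors, no filter, tag range or run as a term, libraries left out, and the lean. No 2 libraries agreed within sampling noise, so none were merged. On counts simulated with 2-fold changes and without a GC lean or run differences, most of the changes put in were recovered. Smaller changes were not simulated.

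The genes, lists and tests were chosen with earlier results of these data known. Named are all 13 mitochondrial genes, core subunits and subunits with tissue-restricted copies. One gene that this takes is not reported here. Also named are, per infusion contrast, up to 5 called genes in each direction or, with none called, the 3 with the smallest p. Per pair of regions these are up to 6 called genes in each direction with the largest change and a mean of at least 5 CPM, and per other list up to 3 called genes. mt-Nd4l, Cox6a2 and genes shown in calls under alternatives fall outside that limit and were named after their values were seen.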

Additional observations from a re-analysis of the deposited data

Results flagged for a closer look

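In groups of 5 or 6 libraries, a library was picked out when its gap to the nearest other library, divided by the range of the group, was above Dixon's 95% critical value (0.710 for 5 libraries and 0.625 for 6). Of 99 groups of values checked, 14 had such a library. Chance picks out about 1 in 20 groups when values are normally distributed. Most groups held levels of genes picked for the smallest p in these data, and groups share libraries. The number flagged can therefore not be read as an excess.

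Summed mitochondrial CPM was high in hypothalamus basal 3 (21067 CPM, next 16048), hippocampus basal 2 (29812 CPM, next 20184) and hippocampus high 2 (32130 CPM, next 19406). Both hippocampus libraries belong to the tag run numbered 3, in which all 8 libraries lay at or above 21501 CPM. Summed nuclear CPM was high in hippocampus high 1 (10032 CPM, next 7104), a library leaning to GC-rich transcripts.

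Among single genes, hippocampus low 5, also a leaning library, was high for Cox5a (95.4 CPM), Ndufa5 (80.4 CPM) and Ndufb9 (123 CPM). Hippocampus high 1 was high for Ndufb9 (83.7 CPM) and Uqcr10 (50.3 CPM). For mt-Atp6, hippocampus basal 2 held 69.6 CPM and hippocampus high 5 held 198 CPM, where the next libraries of these groups held 20.6 and 8.42. Ndufb8 was high in hypothalamus low 1 (248 CPM), Atp5j2 in nucleus accumbens high 2 (82.7 CPM) and Cox7a2l in nucleus accumbens low 2 (371 CPM). The part of the lean and of the tag run in these values was not tested.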

How the results depend on the processing

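For the infusions, the count of genes called stayed 0 in every contrast under the alternatives tried, except in hypothalamus: 1 at the low infusion with DESeq2, and with 1 library left out 0 to 7 at the low and 0 to 4 at the high infusion. Without the leaning libraries the nuclear medians in hypothalamus moved to 0.395 (low) and 0.326 (high), and single differences reversed: Ndufa11 0.0275, Ndufa13 0.116 and Atp5g2 0.184 at the low, and Ndufs7 0.310, Atp5d 0.428 and Ndufa11 0.0932 at the high infusion. Between high and low, Ndufb8 reversed to 0.431 without libraries lacking a hypothalamic peptide and ranged from -0.652 to 0.0242 with 1 library left out, and mt-Atp6 in hippocampus from -0.605 to 2.16. The cause was not tested.

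Calls between hypothalamus and hippocampus (8) numbered 14 with tag range as a term, 19 without leaning libraries, 15 with the lean as covariate, 16 without libraries of mixed dissection (hypothalamus without a peptide marker, nucleus accumbens with Neurod6 above 5 CPM), and 8 to 19 with 1 library left out. For nucleus accumbens and hippocampus (5) they numbered 3 without mitochondrial rows, 9 with tag range, 9 without leaning libraries, 10 with the lean as covariate, 0 with saline libraries only, and 4 to 8 with 1 left out. For nucleus accumbens and hypothalamus (8) they numbered 4, 23 without leaning libraries, 2 with saline only, and 6 to 11. Interactions gave 0 to 1. The saline fits hold fewer libraries, and without mitochondrial rows those genes are not tested.

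The labels give no replicate numbers that pair libraries. Tag runs were tried as a replicate block. Libraries of 1 run had a median correlation of 0.215, 0.313 and 0.166 in hypothalamus, hippocampus and nucleus accumbens. It was over 0.1 in 9 of 12, 12 of 18 and 10 of 18 pairs. Libraries of different runs had medians of -0.053, -0.015 and -0.022 in the same order. Libraries of 1 run were thus more alike at the median, but they are not shown to pair by animal. With the block no gene was called, and the hypothalamus nuclear medians were -0.23 (low) and -0.27 (high). Leaning libraries leave 2 basal hypothalamus libraries, and rows for mt-Co2, mt-Co3, mt-Atp6 and mt-Nd4l hold few counts, which limits both.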

Other observations

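The mitochondrial ribosomal RNAs, which are no subunits, were read beside the genes above. Together mt-Rnr1 and mt-Rnr2 gave 4092 to 14352 CPM. The 3 highest libraries were hippocampus high 2 (14352 CPM), hippocampus basal 2 (13377 CPM) and nucleus accumbens basal 2 (12353 CPM). All 3 belong to the tag run numbered 3, and the same 3 libraries had the highest summed mitochondrial messages, at 32130, 29812 and 30473 CPM.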
